A study of Rattus norvegicus with 6 samples.

Results

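The 8 genes Kcnma1, Kcnmb1, Kcna5, Kcnq5, Kcnj8, Abcc9, Kcnj2 and Kcnk3 encode potassium channel subunits described in arterial smooth muscle. They were found through the platform annotation as the probe sets that name 1 gene, that gene being one of the 8. Each had exactly 1 such probe set, so 8 of 18166 named genes, and 8 of 28879 probe sets, are described. RNA came from the thoracic aorta of SHR, the spontaneously hypertensive rat, and of WKY, the related Wistar-Kyoto strain with normal pressure, both at an age of 24 weeks. Each strain had 3 Affymetrix Rat Gene 2.0 ST arrays, and the rats of both strains were untreated apart from a reading of blood pressure at the tail. Per the series' design text, fat and connective tissue had been taken off the aortae before they were frozen. The labels do not state the sex of the rats. Nowhere do the labels state that every array came from its own rat, so each p-value speaks only of the scatter among these 6 samples, which could be technical.

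A potassium channel that opens in a smooth muscle cell lets potassium leave, makes the membrane potential more negative and so closes voltage-gated calcium channels, and the artery relaxes. Several families share this task. The large conductance channel answers to calcium and voltage, the voltage-gated channels open on depolarization, and the ATP-sensitive channel follows the metabolic state of the cell. The inward rectifier conducts better at more negative potentials, and the tandem-pore channels pass a background current.

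None of the 8 genes passed the test of a difference between SHR and WKY with adjustment over all probe sets (limma, Benjamini-Hochberg adjusted p under 0.05). Of 21659 tested probe sets 0.0693% passed, 0.06% with SHR higher and 0.00923% with SHR lower. All 8 genes entered the test, with adjusted p from 0.734 to 0.988. Without adjustment 2 of the 8 had a p under 0.05, against 5.55% of all tested probe sets (3.01% with SHR higher and 2.54% with SHR lower). These were Kcnmb1, the accessory subunit of the large conductance channel, on the higher side in SHR and Kcnk3, a background channel, on the lower. The same 2 genes were those whose strains did not overlap, 1 in each direction, against 12.1% of all tested probe sets whose strains were apart, 6.48% with SHR higher and 5.61% with SHR lower. The exact two-sided permutation test of a single gene gave 0.1 for each of them, which is the smallest p that 3 arrays against 3 allow. Over the 8 genes the median log2 difference, SHR minus WKY, was -0.05 and the median size of the difference was 0.19. Over 15281 tested genes these medians were 0.0055 and 0.15. Of those genes 5.88% had a limma unadjusted p under 0.05, and for 13.1% the strains did not overlap. A p that misses the threshold does not show that the strains were alike, and the 95% intervals below give the differences that 6 arrays leave possible.

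**Figure D1:**
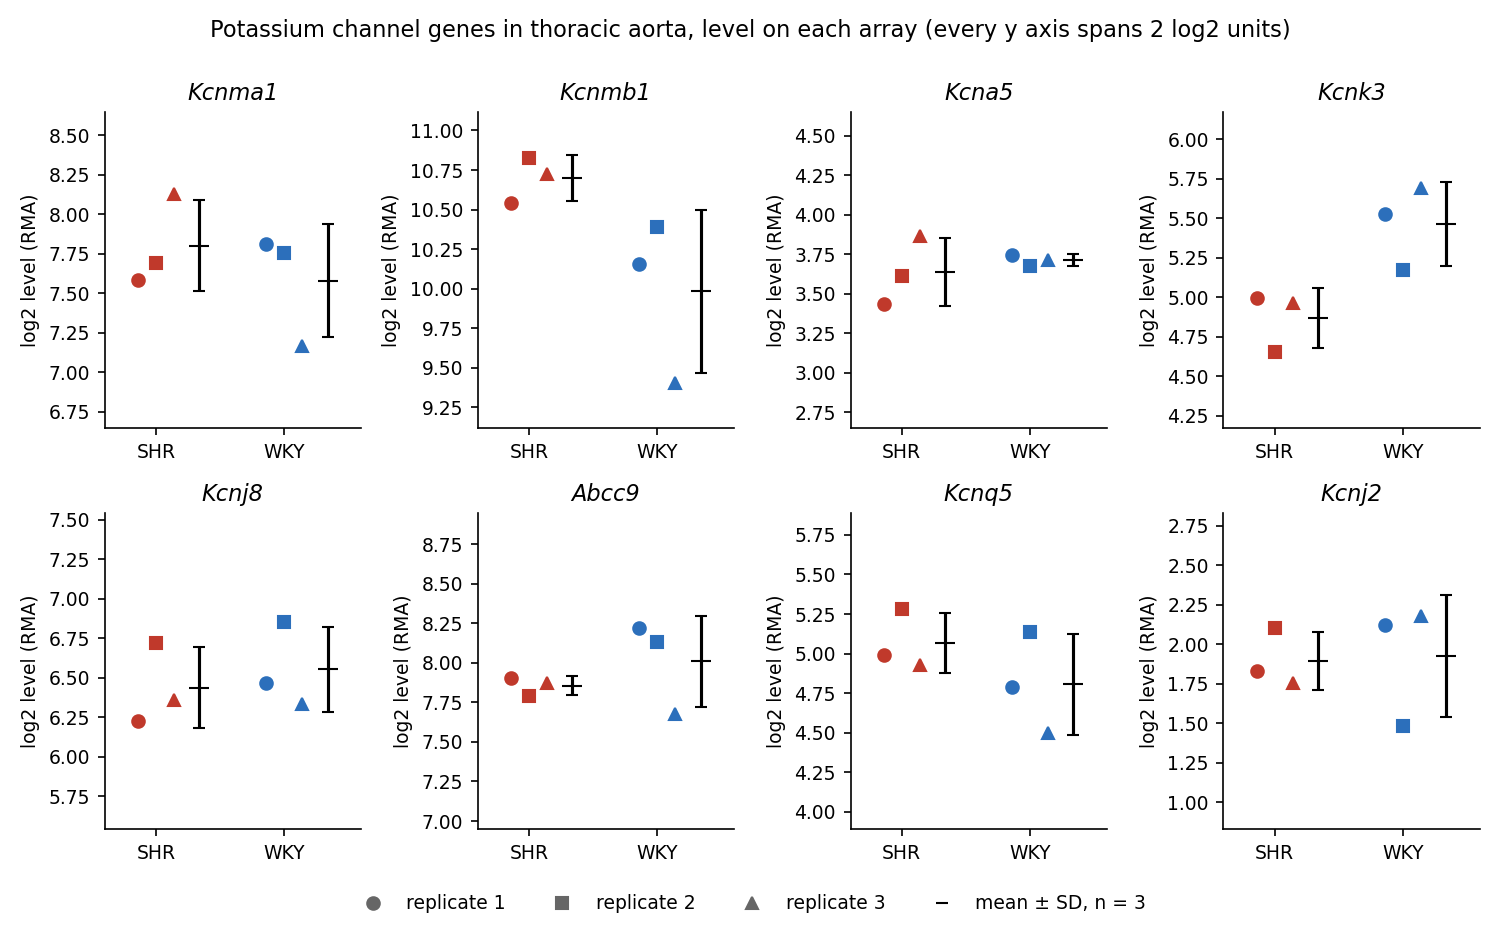
Level of each of the 8 genes on every array, as the deposited log2 value, with SHR in red on the left and WKY in blue on the right. Symbols mark the replicate number, black bars give the mean and SD of 3 arrays, and every y axis spans 2 log2 units around that gene's own values. The strains do not overlap for Kcnmb1 and Kcnk3 and overlap for the other 6 genes.

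The large conductance channel is built from the pore-forming α subunit Kcnma1 and, in smooth muscle, the β subunit Kcnmb1, which makes the channel more sensitive to calcium. Kcnmb1 (probe set 17644943) lay at a log2 level of 10.54, 10.83 and 10.73 on the SHR arrays, against 10.15, 10.39 and 9.40 on the WKY arrays. All SHR arrays were above all WKY arrays, and WKY replicate 3 was the lowest of the 6. The measured difference was 0.72 ± 0.26 (SE), a 1.64-fold higher level in SHR with a 95% interval of 1.08 to 2.51 (limma unadjusted p = 0.0269, adjusted p = 0.845). A difference of this size or more was found for 2.64% of all tested probe sets. It was found for 1 of the 94 other probe sets whose mean level lay within 0.5 log2 units of that of Kcnmb1. Those 94 had a median difference of -0.03.

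WKY replicate 3 stood apart for Kcnmb1. Its Kcnmb1 value was -0.87 from the mean of the other 2 WKY arrays, and the median of the same quantity over the 94 probe sets of similar level was -0.07. Without WKY replicate 3 the difference was 0.43 (limma unadjusted p = 0.0299, adjusted p = 0.687), a change of more than 1.5 times, with the direction kept, and without WKY replicate 2 it was 0.92. That array had the narrowest distribution of all, its values having an SD of 2.12, where the other arrays had 2.22 to 2.27. A further quantile normalization gave 0.70. Without SHR replicate 2 and without SHR replicate 3 the unadjusted p was 0.0825 and 0.0652.

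Kcnma1 (probe set 17696933), the pore of the same channel, lay at 7.58, 7.69 and 8.13 in SHR and at 7.81, 7.75 and 7.17 in WKY. The strains overlapped, with the highest value on SHR replicate 3 and the lowest on WKY replicate 3. The difference was 0.22 ± 0.23 (SE), and its 95% interval from -0.32 to 0.77 includes levels in SHR from 0.799 to 1.70 times those of WKY. Without WKY replicate 3 the difference of Kcnma1 was 0.02, without SHR replicate 3 it was 0.06, and without WKY replicate 1 it was 0.34. The β subunit relative to the α subunit was examined after these values had been seen. The log2 level of Kcnmb1 minus that of Kcnma1 was 2.96, 3.14 and 2.60 on the SHR arrays and 2.34, 2.63 and 2.24 on the WKY arrays. The offset between these 2 probe sets depends on their probes, and only its shift between strains can be read. The shift was 0.49, with SHR replicate 3 just under WKY replicate 2, and the exact two-sided permutation test gave p = 0.2 (0.4 adjusted over the 2 subunit pairs examined).

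Kcnk3 encodes a tandem-pore channel that carries a background potassium current and is closed by extracellular acid. Its probe set, 17820856, lay at 4.99, 4.65 and 4.96 on the SHR arrays, against 5.53, 5.17 and 5.69 on the WKY arrays. Every SHR array was below every WKY array, and replicate 2 was the lowest in both strains. The difference was -0.59 ± 0.19 (SE), a level 0.663 times that of WKY with a 95% interval of 0.488 to 0.901 (limma unadjusted p = 0.0153, adjusted p = 0.734). Of all tested probe sets 4.75% had a difference of at least this size, and 5.17% of the 2884 with a mean level within 0.5 log2 units. Leaving out 1 array gave differences from -0.74 to -0.48, and without SHR replicate 2 the unadjusted p was 0.0613. WKY replicate 3, low for Kcnmb1, was the highest of all arrays for Kcnk3, while the probe sets of similar level were there, in the median, -0.26 from the mean of the other 2 WKY arrays. Without it the difference of Kcnk3 was -0.48 (adjusted p = 0.712).

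**Figure D2:**
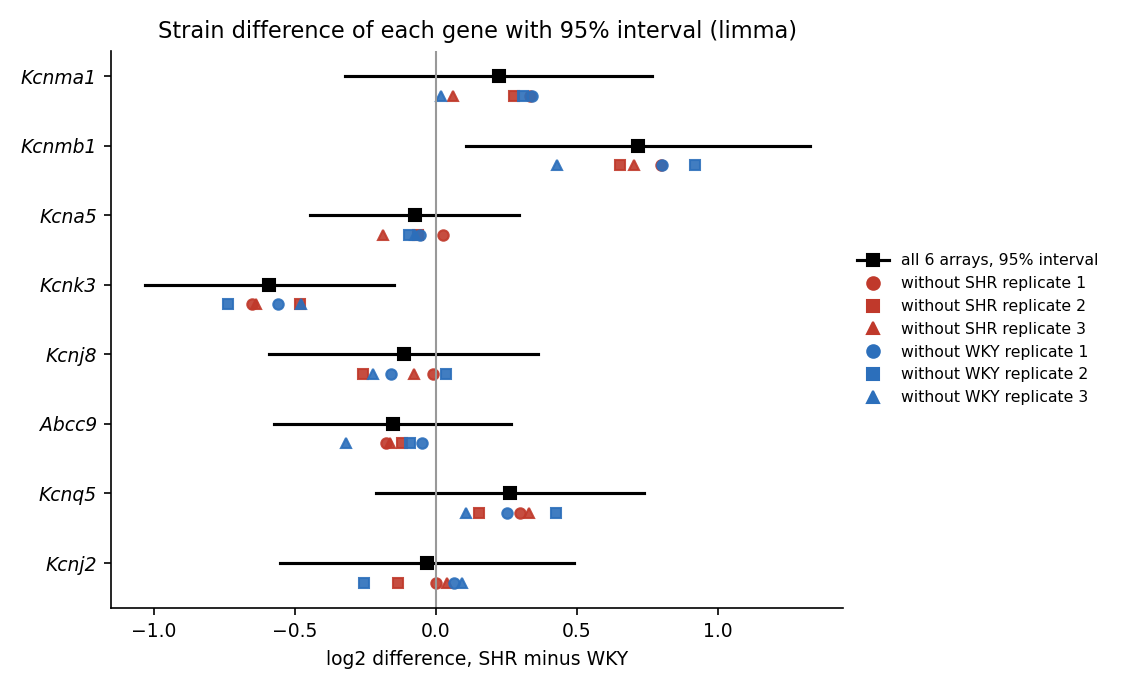
Log2 difference, SHR minus WKY, of each gene with the 95% interval of the limma fit over 6 arrays (black squares and lines), and the same difference with 1 array left out (small symbols under each line, red for an SHR array left out, blue for a WKY array). The intervals of Kcnmb1 and Kcnk3 lie to the right and left of 0 and those of the other 6 genes include 0.

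The voltage-gated subunits Kcna5 and Kcnq5 open on depolarization, and Kcnq5 belongs to the family of channels that carry the M current in neurons. Kcna5 (probe set 17795060) lay at 3.44, 3.61 and 3.86 in SHR and at 3.75, 3.67 and 3.72 in WKY. The SHR arrays fell on both sides of the WKY arrays, whose values spanned only 0.07. The difference was -0.08 (95% interval -0.45 to 0.29), and from -0.19 (without SHR replicate 3) to 0.02 (without SHR replicate 1) with 1 array left out. Kcnq5 (probe set 17863402) lay at 4.99, 5.28 and 4.93 in SHR and at 4.79, 5.13 and 4.50 in WKY. Its strains overlapped through WKY replicate 2, and WKY replicate 3 was again the lowest. The difference was 0.26 (95% interval -0.21 to 0.74, limma adjusted p = 0.923). With 1 array left out it ran from 0.11 (WKY replicate 3) to 0.43 (WKY replicate 2).

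The ATP-sensitive channel of vascular smooth muscle and pericytes is made of the pore Kcnj8 and the sulfonylurea receptor Abcc9, which binds the drugs that open the channel. The genes of both subunits are neighbours, with no gene between them in the RefSeq table of assembly GRCr8. Kcnj8 (probe set 17796225) lay at 6.23, 6.72 and 6.36 in SHR and at 6.47, 6.86 and 6.34 in WKY. Replicate 2 was the highest in both strains, and the strains overlapped over most of their range. The difference was -0.12 (95% interval -0.59 to 0.36), and from -0.26 (without SHR replicate 2) to 0.04 (without WKY replicate 2) with 1 array left out. Abcc9 (probe set 17796257) lay at 7.90, 7.79 and 7.87 in SHR and at 8.22, 8.13 and 7.68 in WKY. The SHR arrays lay within 0.11 log2 units of each other, below WKY replicates 1 and 2 and above WKY replicate 3.

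The difference of Abcc9 was -0.15 (95% interval -0.57 to 0.27, limma adjusted p = 0.932). Leaving out 1 array gave from -0.32 (without WKY replicate 3, limma unadjusted p = 0.0384, adjusted p = 0.712) to -0.05 (without WKY replicate 1). The log2 level of Kcnj8 minus that of Abcc9 shifted by 0.04 between the strains, with overlap (exact two-sided permutation p = 0.9, and 0.9 adjusted over the 2 subunit pairs). Both subunits had intervals that include 0, and these reach down to 0.664 times the WKY level for Kcnj8 and 0.672 times for Abcc9.

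Kcnj2 (probe set 17652361), the strong inward rectifier that responds to small rises of extracellular potassium, lay at 1.83, 2.10 and 1.75 in SHR and at 2.12, 1.48 and 2.18 in WKY. All 6 values were below the median of their own array, which ran from 2.29 to 2.52, and the table holds no detection call. The level of Kcnj2 is therefore not shown to lie above background, and its difference of -0.03 (95% interval -0.55 to 0.49) is one of measured values only. It was 0.013 after a further quantile normalization and 0.016 after median centring. The other 7 genes were above the median of every array.

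**Figure D3:**
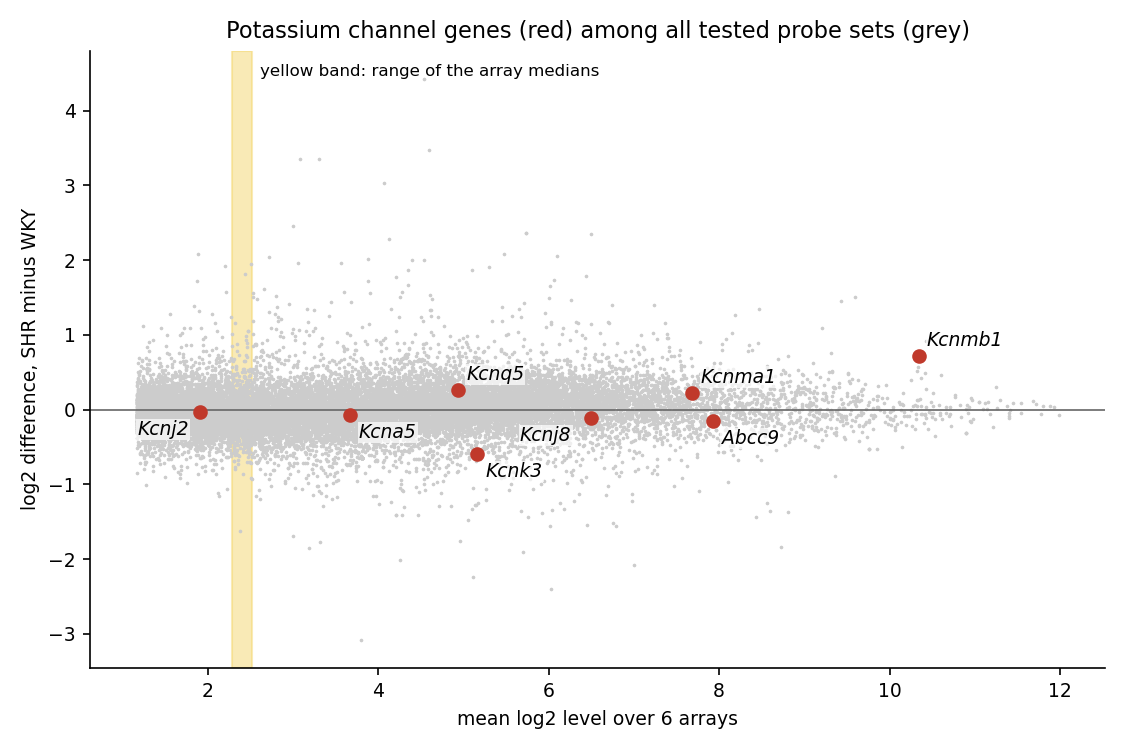
Log2 difference, SHR minus WKY, against the mean log2 level over 6 arrays for the 8 genes (red) and for all 21659 tested probe sets (grey). The yellow band marks the range of the array medians. Kcnmb1 lies above nearly all probe sets of its level. Kcnk3 lies inside the cloud on its lower side, and 5.17% of the 2884 probe sets of similar level differed at least as much, in either direction. The other 6 genes also lie inside the cloud.

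The 8 genes varied among themselves in how far replicates agreed. The SD within strains, pooled over both, was 0.38 for Kcnmb1, 0.32 for Kcnma1 and 0.30 for Kcnj2, and 0.15 for Kcna5. The median over tested probe sets was 0.24. Of the 8 genes 3 were above their strain mean on WKY replicate 3, and the median deviation there was -0.26. From the mean of the other 2 WKY arrays, Kcnma1, Kcnj8, Abcc9 and Kcnq5 were at -0.62, -0.32, -0.50 and -0.46 on that array. Probe sets within 0.5 log2 units of their levels had medians of -0.29, -0.33, -0.25 and -0.24 there. Kcna5 and Kcnj2 were at 0.0053 and 0.38, against medians of -0.04 and 0.23. On WKY replicates 1 and 2 the median deviations were 0.12 and 0.15. The SHR arrays had medians of -0.12, 0.05 and 0.02.

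Likeness between genes was measured as the root mean square distance between their 6 centred log2 values, with 0 for equal profiles. This distance is also small between genes that vary little, so it does not rank pairs by the shape of their profiles. The root mean square of the centred values was 0.13 for Kcna5 and 0.19 for Abcc9, against 0.29 for Kcnma1 and 0.47 for Kcnmb1. Among all pairs of the 8 genes the closest were Kcnj8 and Kcnq5, at 0.21, and Kcna5 and Abcc9, at 0.22. The subunit pair Kcnj8 and Abcc9 came next, at 0.24, and Kcnma1 and Kcnmb1 were at 0.32. The distance of Kcnj8 and Abcc9 was larger than the root mean square of either gene, 0.22 and 0.19. That of Kcnma1 and Kcnmb1 lay between theirs, 0.29 and 0.47. The genes closest to Kcnj8 and Abcc9 were Gpr4, at 0.055, and Med24, at 0.037. Kcnmb1 and Kcnk3 were farthest apart, at 0.81. Out of 15186 tested genes with 1 symbol, those closest to Kcnmb1 were Tbc1d8b, Golt1b and Slc7a5, at 0.067, 0.085 and 0.093. Those closest to Kcnk3 were Mapk12, Or2ak5d and Tamalin, at 0.058, 0.064 and 0.082. Those closest to Kcnma1 were Zfp385d, Pgp and Zcchc7, at 0.056, 0.057 and 0.058. All of these are the nearest of many genes over only 6 values, and shared regulation was not tested.

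The cell types in the samples were described with marker genes, none of which is particular to the aorta. Of 10 smooth muscle markers 8 had a probe set, all above every array median, and their mean log2 level was 9.16, 9.37 and 9.49 on the SHR arrays and 9.31, 9.42 and 9.48 on the WKY arrays. No smooth muscle marker had an unadjusted p under 0.05. With this mean as a covariate the difference of Kcnmb1 was 0.70 and that of Kcnk3 was -0.60, with unadjusted p of 0.0396 and 0.0218. Markers of most other cell types varied more between arrays. The mean of 7 fibroblast markers was 8.64, 7.95 and 7.14 in SHR and 8.29, 8.23 and 8.06 in WKY. That of 6 macrophage markers was 6.02, 4.46 and 3.57 in SHR and 5.27, 4.32 and 4.44 in WKY. Both fell from SHR replicate 1 to replicate 3, as the white adipocyte and endothelial means did, while the smooth muscle mean rose. The mean of 8 white adipocyte markers was 7.67, 5.67 and 4.03 in SHR and 7.37, 5.97 and 6.06 in WKY. The mean of 7 endothelial markers, of 9 listed, was 6.10, 4.69 and 4.0 in SHR and 6.04, 5.41 and 5.26 in WKY. In whole aorta, fewer cells of a type and less RNA per cell cannot be told apart. With the adipocyte mean as a covariate the differences of Kcnmb1 and Kcnk3 were 0.70 and -0.57, and with the endothelial mean, a setting chosen after the data were seen, 0.71 and -0.56, where the unadjusted p of Kcnmb1 was 0.0516. The 5 pericyte markers (Kcnj8 and Abcc9 are also typical of these cells and were not in the list) averaged 6.95, 6.54 and 6.97 in SHR and 6.58, 6.79 and 6.58 in WKY. The 8 skeletal and cardiac muscle markers, of 9 listed, averaged 2.72, 2.82 and 2.81 in SHR and 3.37, 2.80 and 3.10 in WKY. By strain mean 7 of these 8 were lower in SHR, the direction of Kcnk3, Myh7 among them by only -0.03. For Acta1, Ckm, Tnnt2 and Tnnt3 the strains did not overlap, against 12.1% of all tested probe sets, 5.61% with SHR lower. Over all tested genes the share without overlap was 13.1%. Only 4 of the 8 markers had a mean level above every array median, and Tnnt2 was below its array's median on 5 arrays. WKY replicate 2 was the lowest WKY array for Kcnk3 and for this list. The 4 brown adipocyte markers, of 5 listed, averaged 4.96, 4.52 and 3.14 in SHR and 5.69, 4.24 and 4.59 in WKY. They did not go 1 way: Ucp1 and Cidea differed by -2.41 and -0.67, with overlap, and Dio2 by 0.73, without overlap. Elovl3 was below the median of all 6 arrays and was not tested. The part of the muscle and brown adipocyte lists in the result of Kcnk3 was not tested. The mean of 5 sympathetic neuron markers, of 6 listed, was high on 1 array only, SHR replicate 1, at 5.02 against 1.72 to 2.41 on the other 5. Th, Dbh, Slc6a2 and Prph were high there. Phox2a was not, at 2.70, and was highest on WKY replicate 3, at 3.21.

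**Figure D4:**
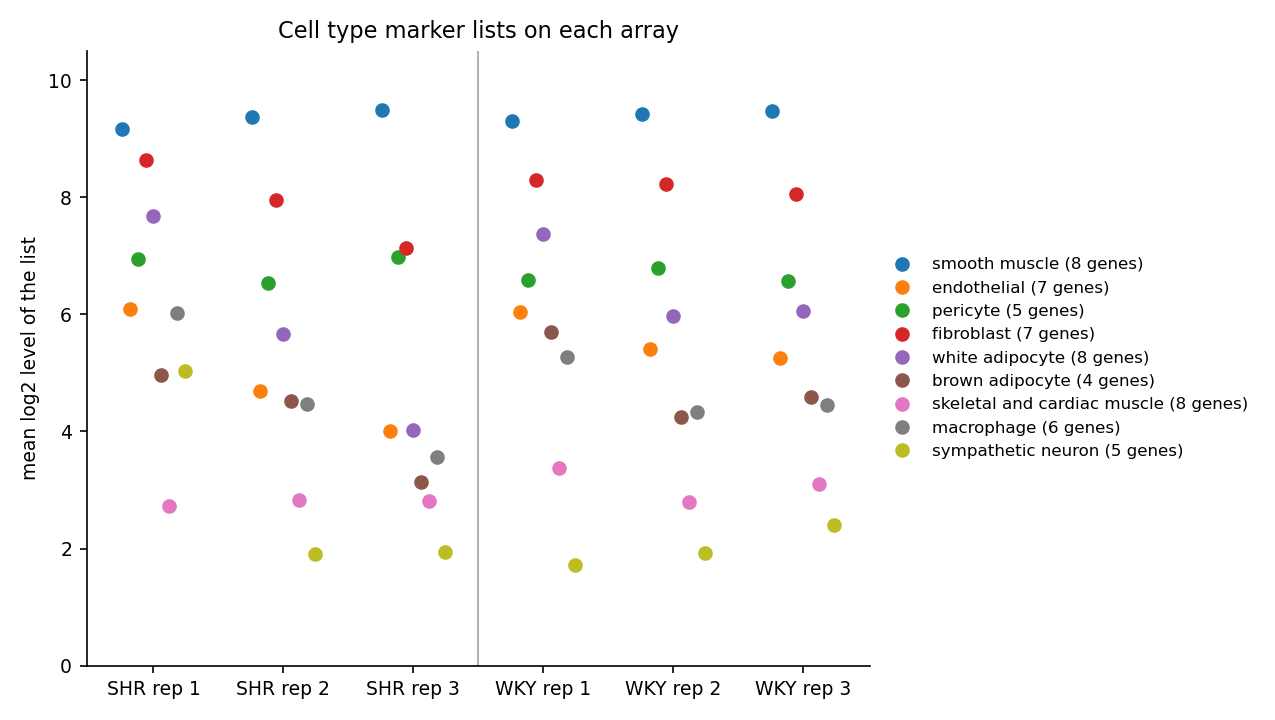
Mean log2 level of each cell type marker list on the 3 SHR arrays (left) and the 3 WKY arrays (right), 1 colour per list. Smooth muscle markers are nearly level across the arrays, white adipocyte and endothelial markers are lowest on SHR replicate 3, and the sympathetic neuron mean is high on SHR replicate 1.

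The wider potassium channel family was described on 91 further genes in 9 lists. Of these 84 had a probe set and 74 entered the test. In limma 0 of the 74 passed with adjustment over all probe sets. An unadjusted p under 0.05 was reached by 5 of them (6.76%), of which 3 were higher in SHR and 2 lower, against 5.55% of all tested probe sets. The strains did not overlap for 9 of the 74, or 12.2%, against 12.1% of all tested probe sets. Over the 15281 tested genes the shares with an unadjusted p under 0.05 and without overlap were 5.88% and 13.1%. The median difference of the 74 was -0.03, and 0.014 after median centring, with 31 genes above 0 and 43 below in the deposited values. Over all tested genes 50.9% were above 0. The mean level of 40 of the 74 was below every array median, so these genes are not shown to lie above background. Probe sets within 0.5 log2 units of the level of Kcnj2, also below every array median, had a median difference of -0.05.

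The 5 genes with an unadjusted p under 0.05 were Kcnip3, Kcnq3, Kcnk2, Kcnj15 and Kcnk5. Kcnip3 encodes a calcium-binding protein that modifies voltage-gated channels of the Kcnd type and also acts as a transcriptional repressor. It lay at 4.70, 5.43 and 4.98 in SHR and at 6.53, 6.89 and 6.00 in WKY. The strains did not overlap, and the difference was -1.44 ± 0.28 (SE; limma unadjusted p = 0.00107, adjusted p = 0.298). No other gene of the lists had a smaller p, and leaving out 1 array gave -1.68 to -1.23. Kcnq3, a partner of Kcnq5 in neurons, lay at 3.17, 2.60 and 3.26 in SHR and at 2.04, 1.76 and 2.06 in WKY. The WKY values were below their array medians, and the difference of 1.06 ± 0.21 (SE; limma adjusted p = 0.310) is one of measured values, not an estimate of the ratio of RNA amounts.

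Kcnk2, a tandem-pore channel opened by membrane stretch, was also below the array medians on all WKY arrays, and on SHR replicate 2. It lay at 2.73, 2.29 and 3.34 in SHR and at 1.86, 1.82 and 2.05 in WKY, a difference of 0.88 (limma adjusted p = 0.663). This too is a difference of measured values, not an estimate of the ratio of RNA amounts. With 1 array left out the difference of Kcnk2 was 0.60 (without SHR replicate 3) to 1.12 (without SHR replicate 2). Kcnj15, an inward rectifier, lay at 3.21, 3.0 and 3.32 in SHR and at 2.47, 2.93 and 2.26 in WKY, a difference of 0.62 (limma adjusted p = 0.764). Its value on WKY replicate 3 was below the median of that array, 2.52. Kcnk5, an acid-sensitive tandem-pore channel named here after its values were seen, lay at 2.19, 2.11 and 1.99 in SHR and at 2.28, 2.70 and 2.74 in WKY. Every SHR value of Kcnk5, and that of WKY replicate 1, was below its array median, and the difference was -0.48 (adjusted p = 0.845).

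**Figure D5:**
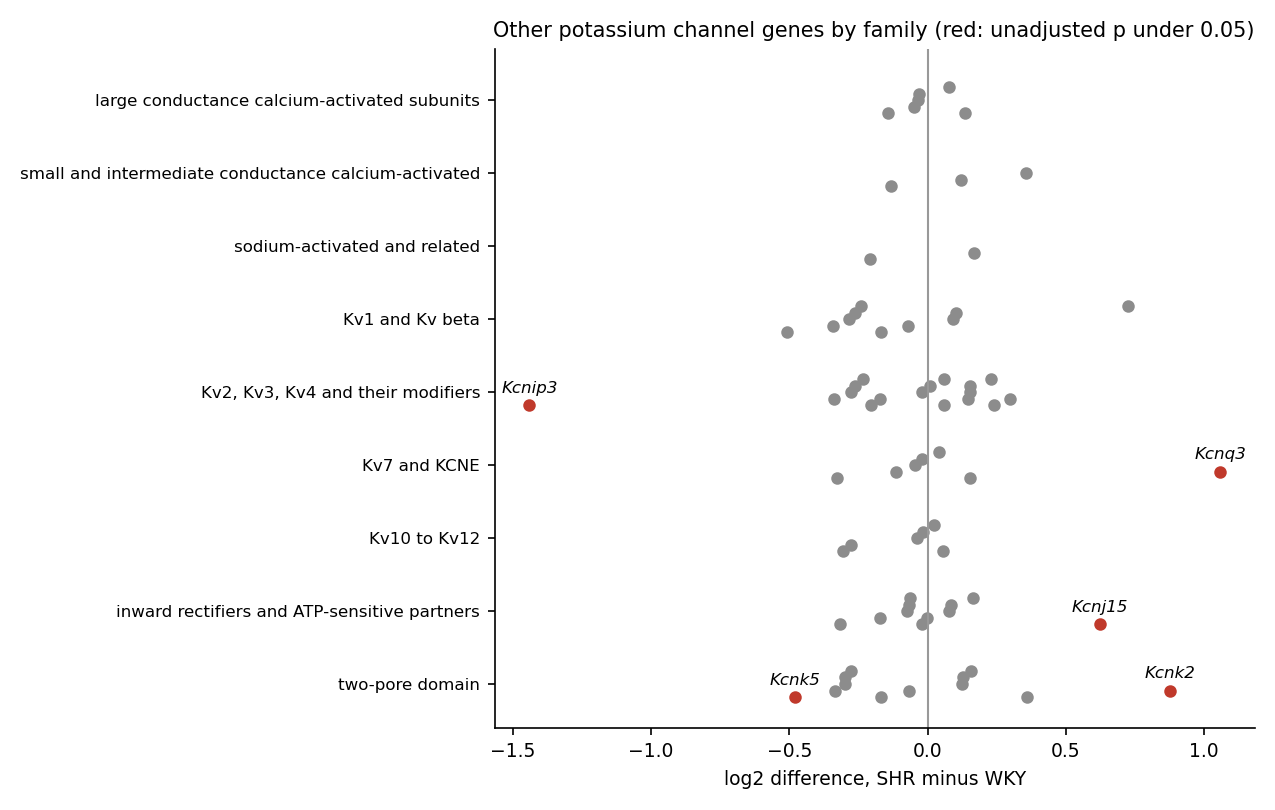
Log2 difference, SHR minus WKY, of the 74 tested genes in 9 lists of other potassium channel genes, 1 point per gene, spread vertically within a list for legibility. Red points have an unadjusted p under 0.05 and are named. No gene passed after adjustment over all probe sets.

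The remaining genes named from the lists, the brightest of each and the one with the smallest p, all had intervals that include 0. Kcna2, a voltage-gated subunit that assembles with Kcna5, lay at 3.32, 3.45 and 4.15 in SHR and at 4.30, 4.13 and 4.02 in WKY. SHR replicate 3 overlapped the WKY arrays, and the difference was -0.51 (limma unadjusted p = 0.0651). Leaving out 1 array gave from -0.76 (without SHR replicate 3, unadjusted p = 0.00461) to -0.35 (without SHR replicate 1). The cytoplasmic β subunit Kcnab1 differed by -0.24 (95% interval -0.62 to 0.14), and by -0.37 to -0.17 with 1 array left out. Kcne4, an accessory subunit of voltage-gated channels, differed by 0.15 (-0.54 to 0.85), and by -0.10 (without WKY replicate 3) to 0.40 (without SHR replicate 1) with 1 array left out. Kcnh2, which carries the rapid delayed rectifier of the heart, differed by -0.02 (-0.51 to 0.48), by 0.03 after median centring, and by -0.15 to 0.18 with 1 array left out. The inward rectifier Kcnj12 differed by -0.07, and by -0.21 (without WKY replicate 1) to 0.21 (without WKY replicate 3) with 1 array left out. Of the γ subunits of the large conductance channel, Lrrc38 differed by -0.04, by 0.012 after median centring, and by -0.22 to 0.23 with 1 array left out. Lrrc26, with all values below the array medians, differed by -0.14, and by -0.24 (without WKY replicate 1) to 0.0029 (without WKY replicate 3) with 1 array left out. The sodium-activated Kcnt1 and Kcnt2, whose mean levels were under the array medians, differed by -0.21 and 0.17, with 1 Kcnt2 value above its array's median. Kcnh4 differed by -0.28, and all of its values but that of WKY replicate 3 were below the array medians.

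The calcium-activated channels of the endothelium, Kcnn3 and Kcnn4, take part in relaxation that starts in the endothelium. Kcnn3 lay at 5.18, 3.74 and 3.46 in SHR and at 4.40, 4.17 and 4.21 in WKY. SHR replicate 1 was the highest and the other 2 SHR arrays the lowest, the same order as that of the endothelial marker mean except for WKY replicates 2 and 3. The difference was -0.13, and leaving out 1 array gave from -0.66 (without SHR replicate 1, limma unadjusted p = 0.00944, adjusted p = 0.493) to 0.20 (without SHR replicate 3). It was 0.36 with the endothelial mean as a covariate. Kcnn4 lay at 4.06, 3.54 and 3.68 in SHR and at 3.54, 3.44 and 3.23 in WKY, a difference of 0.35 (limma unadjusted p = 0.0941). For Kcnn4 leaving out 1 array gave from 0.20 (without SHR replicate 1) to 0.46 (without SHR replicate 2), and the unadjusted p was 0.0257 with the endothelial mean as a covariate and 0.0439 with the adipocyte mean. Kcna1, named after its values were seen, was at 3.66 on SHR replicate 1 and between 1.61 and 2.09 on the other 5 arrays. That array was the one with a high mean of sympathetic neuron markers, whose part in this value was not tested. Kcnk6, a tandem-pore channel, had 2 probe sets, which disagreed in sign, at 0.12 for the brighter and -0.25 for the dimmer.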

How the data were processed

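The 6 aortic RNA samples, 3 of SHR and 3 of WKY, were hybridised to an array each. Strain and replicate number follow the sample titles. The authors deposited log2 levels per probe set, summarized by RMA in the Affymetrix Expression Console (1.2.1), according to the submitters' processing notes. RMA corrects background and quantile-normalizes the arrays. Not given in the sources used here are the genome build, the annotation version and the level of summarization. There is no sequencing depth, and 6 arrays set the limit of precision.

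Symbols came from the platform annotation and were updated by Entrez identifier through RefSeq GRCr8. Probe sets with a mean at or above the 25th percentile (log2 1.17) were tested in R 4.3.3 by limma 3.58.1 (functions lmFit and eBayes, two-sided, with strain alone in the model). Benjamini-Hochberg adjustment ran over all 21659. The fit was tested on simulated data. The brightest of several probe sets stood for a gene. Named are the 8 genes and, of each of the 9 lists, the brightest gene and that with the smallest p. The genes and lists were chosen with earlier results of these data known. Alternatives covered the filter, scaling, variance prior, array weights, probe set choice, replicate block, single arrays left out and marker means as covariates.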

Additional observations from a re-analysis of the deposited data

How the results depend on the processing

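The comparison was repeated under 18 alternatives, of which 2 were chosen after seeing the data: leaving out both SHR replicate 1 and WKY replicate 3, and the endothelial mean as a covariate. None of the 8 genes, and none of the 74 others, passed in any of them. Kcnmb1 and Kcnk3 kept their direction in 18 of 18, from 0.43 to 0.92 and from -0.74 to -0.48, with an unadjusted p under 0.05 in 15 and 17 and limma adjusted p of at least 0.299 and 0.302. Kcnma1, Abcc9 and Kcnq5 also kept their direction in 18 of 18.

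The count of the 8 genes with an unadjusted p under 0.05, 2 with all arrays, was 0 to 3 with arrays left out (0 without SHR replicate 2, 1 without SHR replicate 3 and 3, with Abcc9, without WKY replicate 3). It was 1 with the endothelial covariate and 3, with Abcc9, with array weights. For the other 74 it was 5, and 3 with the 50th percentile as the filter (which tests fewer genes, Kcnj2 not among them), 8 with array weights, 8 with the adipocyte covariate and 8 with the endothelial covariate. The count of all passing probe sets, 15, was 65 with array weights, 33 with the smooth muscle covariate and 2 to 115 with arrays left out, the highest without both arrays. The causes were not tested.

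Some differences turned their sign. Kcnj2 was at 0.013 after quantile normalization, 0.016 after median centring, 0.14 with array weights and 0.0023 with the adipocyte covariate. Median centring gave 0.012 for Lrrc38 and 0.030 for Kcnh2. Array weights gave 0.13 for Kcnh2, 0.011 for Kcnh4, 0.11 for Kcnj12 and -0.011 for Kcnk6. The smooth muscle covariate gave 0.096 for Kcnh2 and -0.00090 for Kcnk6, and the mean of its probe sets -0.061 for Kcnk6. The adipocyte covariate gave 0.044 for Lrrc38 and 0.16 for Kcnn3, and the endothelial one 0.11 for Lrrc38, 0.36 for Kcnn3 and -0.010 for Kcne4. With arrays left out, Kcna5 ran from -0.19 to 0.026, Kcnj8 from -0.26 to 0.036 and Kcnj2 from -0.25 to 0.13. Lrrc26 ran from -0.24 to 0.0029, Lrrc38 from -0.33 to 0.23, Kcnn3 from -0.68 to 0.20 and Kcnt2 from -0.071 to 0.33. Kcne4 ran from -0.10 to 0.40, Kcnh2 from -0.15 to 0.24, Kcnh4 from -0.45 to 0.13, Kcnj12 from -0.21 to 0.21 and Kcnk6 from -0.15 to 0.28. The causes of these turns were not tested.

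The deviations from the strain mean of arrays with the same replicate number had correlations of 0.33, -0.071 and 0.21. Arrays of different number were not compared, so these values do not decide whether the numbers mark pairs. The main model left the number out, as the labels do not state what it shares. With the replicate number as a block the differences were the same, 0.72 for Kcnmb1 and -0.59 for Kcnk3, with limma adjusted p of 0.656 and 0.529, no gene of the 8 passed, and 3 probe sets passed in all.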
